A study of Mus musculus with 24 samples.

Results

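Expression of 7 genes of nicotinamide adenine dinucleotide (NAD) metabolism was followed through a circadian day in mouse eWAT, the white fat that surrounds the epididymis: Nampt, Nmnat1, Nmnat3, Nadk, Nnmt, Sirt1 and Naprt. They are 7 of 22180 genes with a probe set of their own on the arrays, and each had 1 probe set that passed the filter on low signal, which left 15526 genes tested. Animals of the MUT group had the genotype Syt10-Cre/Cre x Bmal1 flox/-, which removes the clock of the suprachiasmatic nucleus (SCN), the master pacemaker in the brain. Those of the CON group had the genotype Syt10-Cre/Cre x Bmal1 +/-, so both groups were homozygous for Syt10-Cre and carried 1 null allele of Bmal1. Cre is driven from the Syt10 locus, and where it acted outside the SCN was not measured here. The animals spent 2 weeks in a light-dark cycle, were moved to constant darkness and were killed in its second day at CT1, 7, 13 or 19 (circadian time, in hours), with 3 mice and 3 arrays in each of 8 groups. The sources used here give no age for the mice.

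NAD carries electrons in metabolism and is also consumed by sirtuins, poly-ADP-ribose polymerases (PARPs) and NAD hydrolases, which release nicotinamide. In most mammalian tissues nicotinamide is recycled: NAMPT, the rate-limiting enzyme of salvage, joins it to a phosphoribosyl group to give nicotinamide mononucleotide (NMN), and the NMNAT enzymes turn NMN into NAD. NAMPT is also released by fat cells, and in that form it was described as the adipokine visfatin. Nampt is a textbook clock-controlled gene: CLOCK and BMAL1 bind E-boxes at the gene in liver and fibroblasts, and SIRT1, an NAD-dependent deacetylase, in turn acts on the CLOCK complex.

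The labels conflict: eWAT stands in titles and treatment text, but mediobasal hypothalamus in the source field. All 8 adipocyte markers passed the signal filter, at a median log2 signal of 12.56 and a median percentile of 99.5 among tested genes. Of 7 measured hypothalamus and neuron markers 4 passed, and the list had a median percentile of 10.3. The 3 arrays with the narrowest spread of signal were CON arrays, CT7 replicates 2 and 3 and CT13 replicate 1. Their interquartile range was 1.942 to 1.968 against 1.984 to 2.185 on the others. The cut at 3 arrays was a choice and marks no clear gap, since CON CT13 replicate 2 followed at 1.984. Results are given with and without these 3 arrays where a call changed. Without them CON CT7 rests on 1 array. Signals are log2 values, errors of group means are SD over 3 arrays, and errors of differences and rhythms are SE of the limma model over all 24 arrays. In whole tissue, fewer cells of a type and less RNA per cell cannot be told apart.

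The 250 bases before the annotated transcription start were looked up in RefSeq's promoter table for GRCm38.p6, which held windows for 5 of the 7 genes: Nampt, Nmnat1, Nmnat3, Nadk and Sirt1. The windows of 3 genes are shown, that of Nampt, the only member with a called rhythm, that of Sirt1, which holds the canonical E-box, and that of Pnp, the gene whose profile was closest to Nampt's. They lie at chr12:32820085-32820334 (plus strand), chr10:63339036-63339285 (minus strand) and chr14:50944053-50944302 (plus strand). Each is printed 5′ to 3′ on the gene's own strand, in the order Nampt, Sirt1, Pnp, and capitals mark a motif match.
Nampt: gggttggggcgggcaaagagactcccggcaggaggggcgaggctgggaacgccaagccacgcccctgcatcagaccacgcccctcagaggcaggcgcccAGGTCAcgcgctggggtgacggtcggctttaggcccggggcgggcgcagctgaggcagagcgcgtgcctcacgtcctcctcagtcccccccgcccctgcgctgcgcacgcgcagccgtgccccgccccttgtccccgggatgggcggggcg
Sirt1: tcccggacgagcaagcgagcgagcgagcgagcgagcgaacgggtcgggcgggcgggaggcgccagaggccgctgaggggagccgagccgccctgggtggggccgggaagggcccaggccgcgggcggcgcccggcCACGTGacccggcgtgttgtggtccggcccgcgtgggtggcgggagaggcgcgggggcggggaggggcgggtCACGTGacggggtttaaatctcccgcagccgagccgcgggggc
Pnp: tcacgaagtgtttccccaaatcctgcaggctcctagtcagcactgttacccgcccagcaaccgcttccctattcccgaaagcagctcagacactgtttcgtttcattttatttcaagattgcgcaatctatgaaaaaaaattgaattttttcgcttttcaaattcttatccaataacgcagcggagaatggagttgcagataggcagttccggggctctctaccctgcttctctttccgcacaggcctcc
A set of 4 motifs was searched on both strands: the E-box CACGTG, its variant CACGTT, the D-box TTATGNAA and the nuclear receptor core site AGGTCA, which is part of the REV-ERB and ROR element. The Nampt window held 1 AGGTCA, 151 bases before the start, and no match to the other motifs. The Sirt1 window held CACGTG at 115 and at 43 bases before the start. A second start of Nadk had a CACGTG 40 bases before it, and the windows of Pnp, Nmnat1 and Nmnat3 held no match. Of 32851 windows of the same length in the table, 14.0% held AGGTCA, 6.02% CACGTG, 3.85% CACGTT and 3.07% TTATGNAA.

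Nampt was the only one of the 7 genes with a called rhythm, and it had one in both genotypes, with an earlier peak in MUT. In CON it was high in the subjective night and in MUT from the middle of the subjective day, with fitted swings of 0.55 and 0.60 log2. The mean log2 signal of its probe set (17274875) was 10.26, at percentile 89.6 of the tested genes. In CON its 3 arrays read 10.05, 10.06 and 10.06 at CT1, and 10.05, 10.07 and 9.96 at CT7. They read 10.51, 10.61 and 10.27 at CT13, and 10.40, 10.33 and 10.45 at CT19. The 6 CON arrays of CT13 and CT19 (10.27 to 10.61) all lay above the 6 of CT1 and CT7 (9.96 to 10.07). These pairs of times, and those used for MUT below, were picked from the values themselves. The share of all genes separated in this way was not counted. In MUT Nampt read 10.25, 10.18 and 10.17 at CT1, and 10.56, 10.54 and 10.57 at CT7. It read 10.56, 10.01 and 10.55 at CT13, and 9.86, 10.17 and 9.94 at CT19. The MUT arrays of CT7 and CT13 (10.01 to 10.57) overlapped those of CT1 and CT19 (9.86 to 10.25) through 1 array, CT13 replicate 2 at 10.01, well below its 2 companions at that time.

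**Figure D1:**
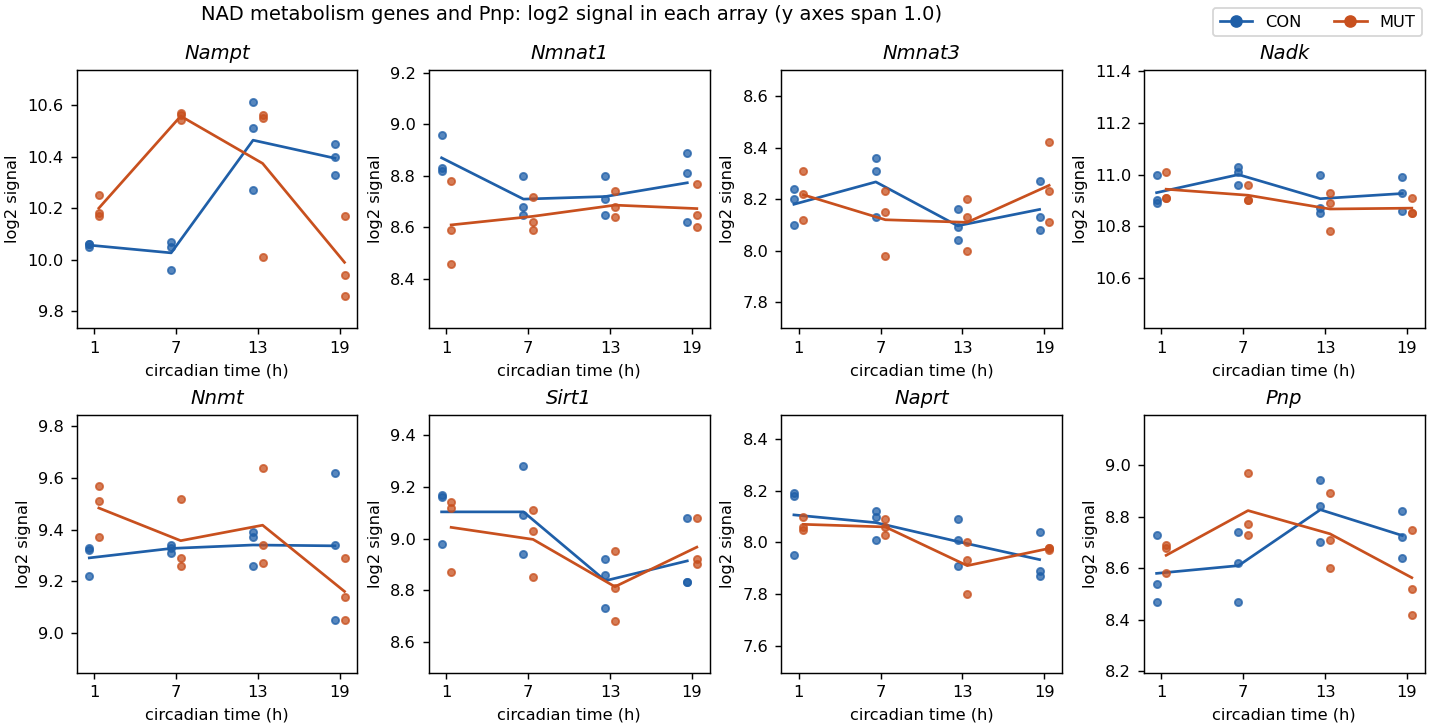
Log2 signal of the 7 NAD genes and Pnp in each of 24 arrays (points) against circadian time in hours, with lines through the group means of CON (blue) and MUT (orange). Every y axis spans 1.0 log2 unit, so the swing of Nampt can be compared by eye with the profiles of the other genes.

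The order of the 8 Nampt group means ran from MUT CT7 (10.56 ± 0.02) through CON CT13 (10.47 ± 0.17), CON CT19 (10.39 ± 0.06) and MUT CT13 (10.37 ± 0.31) to MUT CT1 (10.20 ± 0.04). Below these lay CON CT1 (10.06 ± 0.01), CON CT7 (10.03 ± 0.06) and MUT CT19 (9.99 ± 0.16). Of the 7 neighbouring pairs in this order, 6 had overlapping arrays, and only MUT CT1 and CON CT1 did not. The top of the order mixed CON CT13 and CT19 with MUT CT7 and CT13, and the bottom mixed CON CT1 and CT7 with MUT CT19.

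A 24-h cosine was fitted through the 4 times of each genotype, and its size is the log2 distance from peak to trough. In CON the Nampt rhythm was 0.55 ± 0.11 (1.46-fold), with its peak at CT15.8 ± 0.75 h (adjusted p = 0.00497, limma's moderated F test with Benjamini-Hochberg adjustment over all tested genes). In MUT the size was 0.60 ± 0.11 (1.51-fold) and the peak at CT8.12 ± 0.69 h (adjusted p = 0.0287, limma). The same rule called 17.1% of all tested genes in CON (2650) and 0.348% in MUT (54). In each genotype it called 1 of the 7 NAD genes, Nampt; the CON count of 1 in 7 lies near that background. By p-value Nampt stood at place 586 among all genes in CON and at place 34 in MUT. With times 6 h apart, a fitted peak time rests on the cosine shape.

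The rhythms of Nampt differed between genotypes. The vector difference of the fitted waves was 0.97 ± 0.15 log2 (adjusted p = 0.00428, limma), place 35 of all genes by p, where 1.44% of genes (223) passed. Nampt was again the 1 member called. The peak moved by -7.69 ± 1.02 h, that is, earlier in MUT, and over the 24 fits with 1 array left out the shift ranged from -8.27 to -6.69 h. The size did not differ detectably: MUT minus CON was 0.05 ± 0.15, with a 95% interval from -0.27 to 0.37, so a swing lower by 0.27 or higher by 0.37 log2 in MUT remains within the interval. The rhythm in CON and the difference passed in all 24 leave-outs. The MUT rhythm lost its call without MUT CT7 replicate 1 (0.59, adjusted p = 0.112), replicate 2 (0.61, adjusted p = 0.0959) or replicate 3 (0.59, adjusted p = 0.083), and without MUT CT19 replicate 1 (0.54, adjusted p = 0.172) or replicate 3 (0.57, adjusted p = 0.0604), all by limma. Without MUT CT13 replicate 2, the low array, the MUT size was 0.67 and its adjusted p = 0.00027 (limma), with the peak at CT9.12. Without the 3 arrays of narrow spread the sizes were 0.52 in CON, 0.60 in MUT and 0.94 for the difference, and none of the 3 passed (adjusted p = 0.0714, 0.0647 and 0.0509, limma).

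The peak times of 6 clock genes of the same arrays give the scale of this shift. Arntl, which encodes BMAL1, peaked at CT20.5 in CON and CT15.9 in MUT, a shift of -4.57 ± 0.52 h. Npas2, which encodes a partner of BMAL1, moved by -4.32 ± 0.57 h (CT21.6 to CT17.3). Nr1d1, the REV-ERB alpha gene, moved by -5.37 ± 0.39 h, Per1 by -5.71 ± 0.75 h, Dbp by -4.26 ± 0.61 h and Per3 by -3.71 ± 0.53 h. The 6 shifts span -5.71 to -3.71 h against -7.69 ± 1.02 h for Nampt. Whether Nampt moved further than these genes was not tested, and in the leave-outs its own shift came as close to theirs as -6.69 h. In CON the Nampt peak followed that of Dbp by 7.76 h and preceded that of Arntl by 4.65 h; in MUT it followed Dbp by 4.34 h and preceded Arntl by 7.76 h.

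**Figure D2:**
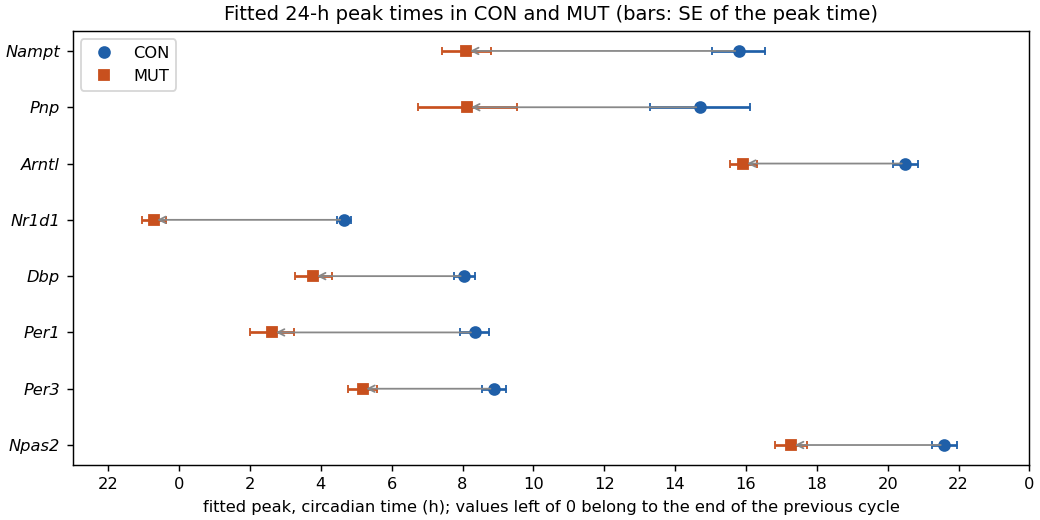
Fitted 24-h peak times in CON (blue circles) and MUT (orange squares) on a circadian time axis in hours, with bars of 1 SE and an arrow from CON to MUT. All 8 genes lie earlier in MUT, by 3.71 h (Per3) to 7.69 h (Nampt); Pnp passed the rhythm test in neither genotype.

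At single times the direction of the Nampt difference turned over the day. At CT7 Nampt was higher in MUT by 0.53 ± 0.11 log2 (1.45-fold, 95% interval 0.31 to 0.76, adjusted p = 0.00866, limma). The 3 MUT arrays all lay above the 3 CON arrays, as they did for 15.2% of all genes. At CT19 Nampt was lower in MUT by 0.41, a log2 difference of -0.41 ± 0.11 (1.33-fold, interval -0.63 to -0.18, adjusted p = 0.043, limma). Here the 3 MUT arrays all lay below the 3 CON arrays, as they did for 13.3% of all genes. At CT1 the difference was 0.14 (interval -0.08 to 0.36, adjusted p = 0.666, limma) and at CT13 -0.09 (-0.32 to 0.13, adjusted p = 0.633, limma). These opposite differences left the daily mean at 0.04 ± 0.05 (interval -0.07 to 0.16, adjusted p = 0.57, limma). Over all genes 4.05% were called at CT7 (2.98% higher in MUT) and 2.74% at CT19 (0.812% lower in MUT), and Nampt was the 1 member called at each time. No member was called at CT1 or CT13, where 0.0451% and 0.322% of genes passed. With arrays shifted to 1 median the share of calls that were higher in MUT rose from 73.4% to 89.8% at CT7 and from 70.4% to 85% at CT19; Nampt kept both directions, but at CT19 it lost its call (-0.36, adjusted p = 0.0578, limma).

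The CT19 call of Nampt was the less stable of the 2. It ended without any 1 of 12 arrays, with log2 differences from -0.50 to -0.34 over all 24 leave-outs: CON CT1 replicates 1 and 3, CON CT7 replicate 3, CON CT19 replicates 1, 2 and 3, MUT CT1 replicates 1 and 2, MUT CT7 replicate 3 and MUT CT19 replicates 1, 2 and 3, with adjusted p up to 0.181 (limma). A block for the replicate letters also ended it (adjusted p = 0.0593, limma). The CT7 call held in all 24 leave-outs (0.50 to 0.55, adjusted p at most 0.0454, limma). Without the 3 arrays of narrow spread, 2 of which are CON CT7 arrays, the differences were 0.51 at CT7 and -0.41 at CT19 (adjusted p = 0.179 and 0.0611, limma).

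Some markers of other cell types also had a called rhythm in CON, where 17.1% of all genes had one. In MUT none of the tested markers had a called rhythm, and 0.348% of all genes did. The score of a list in an array was the median of its markers, each centred over all arrays. Scores were then averaged over the 3 arrays of a group. For 8 mesothelium markers the mean scores were -0.30, -0.83, 0.08 and 0.30 log2 in CON and 0.02, -0.23, 0.28 and 0.59 in MUT at CT1, 7, 13 and 19. Of these markers 8 of 8 had a rhythm in CON. For 6 macrophage markers the mean scores were -0.10, -0.31, 0.11 and 0.16 in CON, and -0.08, -0.20, 0.26 and 0.10 in MUT, with 3 of 6 rhythmic in CON. For 6 fibroblast and preadipocyte markers, 4 of them rhythmic in CON, they were -0.05, -0.38, 0.06 and 0.19 in CON and -0.08, -0.07, 0.09 and 0.20 in MUT; their part in the result was not tested. For 5 endothelium markers, 3 of them rhythmic in CON, the mean scores were 0.11, -0.02, -0.12 and -0.06 in CON and 0.01, -0.01, 0.06 and 0.10 in MUT. In CON they were highest at CT1, where Nampt was low, and this list was not tested either. The CON order of the mesothelium, macrophage and fibroblast lists resembles that of Nampt in CON, while in MUT Nampt was highest at CT7, where the mesothelium and macrophage lists were lowest. With the mesothelium score as a covariate, Nampt had a size of 0.82 in CON (adjusted p = 0.00161), 0.44 in MUT (adjusted p = 0.216) and 1.05 for the difference (adjusted p = 0.000416, limma). The MUT minus CON difference was then 0.68 at CT7 (adjusted p = 0.00134) and -0.33 at CT19 (adjusted p = 0.075, limma). With the macrophage score the sizes stayed at 0.55, 0.60 and 0.97, with adjusted p = 0.0468, 0.0721 and 0.0056 (limma). Of 6 neutrophil markers 2 passed the signal filter. Of 8 adipocyte markers 2 were rhythmic in CON, and their mean scores ran from -0.04 (CON CT1) to 0.04 (MUT CT7).

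The NMNAT enzymes take the next step of salvage, NMNAT1 in the nucleus and NMNAT3 in mitochondria. Nmnat1 was at 8.87 ± 0.08, 8.71 ± 0.08, 8.72 ± 0.08 and 8.77 ± 0.14 in CON at CT1, 7, 13 and 19, while the MUT means were 8.61 ± 0.16, 8.64 ± 0.07, 8.69 ± 0.05 and 8.67 ± 0.09. The daily mean of Nmnat1 was lower in MUT by 0.12, a log2 difference of -0.12 ± 0.04 (adjusted p = 0.0444, limma). That is 1 of the 7 members in a comparison that called 21.7% of all genes, 9.42% as lower in MUT, so this count lies near the background. With arrays shifted to 1 median the share of daily mean calls that were higher in MUT rose from 56.5% to 87.7%, and the Nmnat1 difference was then -0.07 (adjusted p = 0.208, limma). The gap was widest at CT1, where the CON arrays read 8.96, 8.83 and 8.82 and the MUT arrays 8.59, 8.46 and 8.78. The 3 CON arrays lay above the 3 MUT arrays, as they did for 8.85% of all genes, but the difference of -0.26 ± 0.08 did not pass at that time (adjusted p = 0.19, limma). The daily mean call ended in 15 of 24 leave-outs, which gave -0.14 to -0.10 with adjusted p from 0.02 to 0.0855 (limma). The 9 arrays without which it held were CON CT1 replicate 3, CON CT7 replicate 1, CON CT13 replicates 1 and 3, CON CT19 replicate 1, MUT CT1 replicate 3, MUT CT7 replicate 2, MUT CT13 replicate 1 and MUT CT19 replicate 2. Without the 3 arrays of narrow spread its adjusted p was 0.155 (limma).

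Nmnat3 was nearly flat. Its group means ran from 8.10 in CON at CT13 to 8.27 in CON at CT7, a range of 0.17 against a median SD of 0.10 within groups. Its 24-h sizes were 0.13 ± 0.09 in CON and 0.17 ± 0.09 in MUT (adjusted p = 0.483 and 0.516, limma), and the daily means differed by 0.00, with an interval from -0.09 to 0.09. Its means ran against those of Nampt over the 8 groups (Pearson r = -0.88), being highest in CON at CT7 and in MUT at CT19, where Nampt was low. This correlation rests on Nmnat3 means within a range of 0.17, small beside the spread of its arrays, and shows no called rhythm. No p is attached to this or the following correlations, since the 8 means come from the same 24 arrays, normalised together.

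Nadk encodes the cytosolic NAD kinase, which makes NADP. Its signal was high in the range of the arrays (mean log2 signal 10.92, percentile 95.5), and its group means differed least of the 7, by 0.13. CON at CT7 was highest, with arrays at 11.01, 11.03 and 10.96, and MUT at CT13 lowest, with a mean of 10.87. All 24 arrays lay between 10.78 and 11.03. The 24-h size was 0.08 ± 0.06 in CON and 0.09 ± 0.06 in MUT (adjusted p = 0.573 and 0.663, limma). The daily mean differed by -0.04, with an interval from -0.10 to 0.02.

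NNMT methylates nicotinamide and so takes it out of the salvage path; the enzyme is abundant in fat. Nnmt stood at 9.29 ± 0.06, 9.33 ± 0.01, 9.34 ± 0.07 and 9.34 ± 0.28 in CON, with no 24-h swing beyond error (0.05 ± 0.11, adjusted p = 0.928, limma). In MUT it was at 9.48 ± 0.10, 9.36 ± 0.14, 9.41 ± 0.20 and 9.16 ± 0.12, with a size of 0.21 ± 0.11 (adjusted p = 0.542, limma). At CT1 the 3 MUT arrays (9.37 to 9.57) lay above the 3 CON arrays (9.22 to 9.33), a difference of 0.19 with an interval from -0.04 to 0.42 (adjusted p = 0.531, limma). At CT1 2 of the 7 members were higher without overlap, Nampt and Nnmt, and 1 was lower, Nmnat1, where 10% and 8.85% of all genes were. At CT7 1 was higher (background 15.2%), at CT19 1 was lower (13.3%), and at CT13 no member was free of overlap (10% of genes higher, 12.2% lower). The remaining shares were 10.3% lower at CT7 and 14% higher at CT19, with no member.

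Sirt1 uses NAD as a co-substrate. In CON its arrays read 9.16, 8.98 and 9.17 at CT1, and 9.28, 9.09 and 8.94 at CT7. They read 8.73, 8.92 and 8.86 at CT13, and 8.83, 8.83 and 9.08 at CT19. The subjective day was thus higher on average, and the night arrays overlapped the day arrays. The CON size was 0.33 ± 0.10 with its peak at CT3.36, which missed the threshold (adjusted p = 0.0649, limma). It passed without CON CT7 replicate 3 (0.38, adjusted p = 0.0452) and without CON CT19 replicate 3 (0.38, adjusted p = 0.0382, limma). In MUT, Sirt1 read 9.14, 9.12 and 8.87 at CT1, and 8.85, 9.11 and 9.03 at CT7. It read 8.81, 8.95 and 8.68 at CT13, and 8.90, 9.08 and 8.92 at CT19. The MUT size was 0.23 ± 0.10 with its peak at CT1.52 (adjusted p = 0.413, limma), and the rhythms of the genotypes did not differ detectably (0.16 ± 0.14, adjusted p = 0.78, limma). In MUT, Sirt1 had its lowest mean at CT13, 8.81 ± 0.14, as in CON (8.84 ± 0.10), and its means ran partly against those of Nampt (r = -0.62).

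NAPRT starts the separate route from nicotinic acid. Naprt gave a low signal (mean log2 8.02, percentile 23.6), with group means from 7.91 in MUT at CT13 to 8.11 in CON at CT1. The fitted size was 0.17 ± 0.07 in CON with a peak at CT4.59 and 0.18 ± 0.07 in MUT with a peak at CT2.87, and neither passed (adjusted p = 0.178 and 0.36, limma). The largest MUT minus CON difference was -0.09 at CT13 (interval -0.24 to 0.05). Over the 6 members other than Nampt, all 7 of 7 neighbouring groups overlapped in the order of means. Nampt itself overlapped in 6 of 7, and the share over all genes was not counted, so this does not show the others to be flatter.

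**Figure D3:**
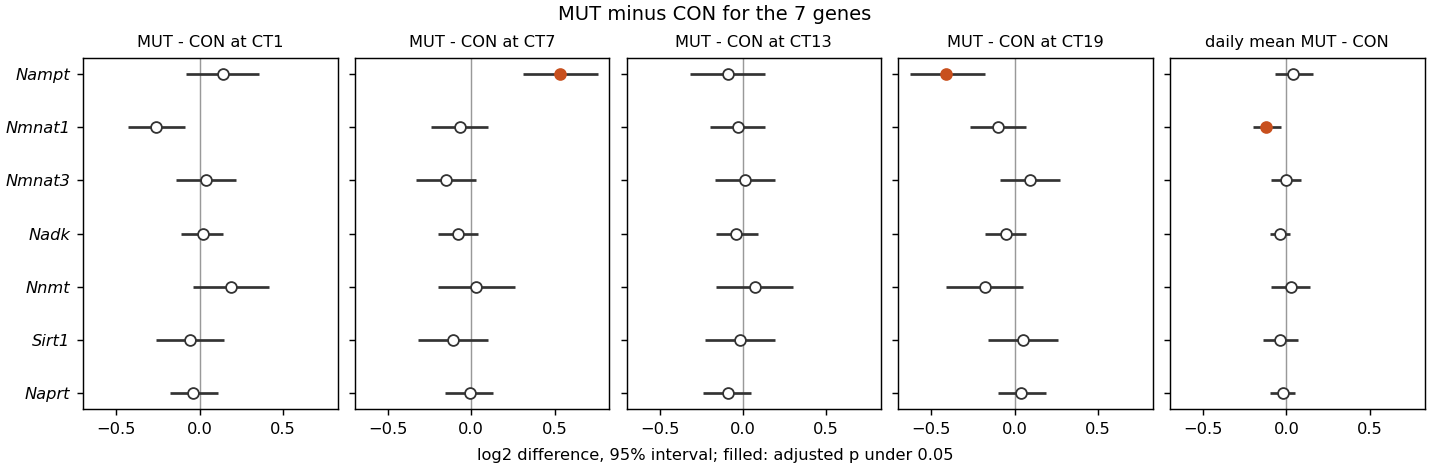
MUT minus CON log2 difference (points) with its 95% interval (bars) for the 7 genes at each circadian time and for the daily mean; filled points passed an adjusted p of 0.05. Nampt is called at CT7 (0.53) and CT19 (-0.41) in opposite directions, and Nmnat1 in the daily mean (-0.12).

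The members were then set in the wider pathway, a list of 50 genes in 10 roles, of which 41 were tested. Nmrk2, Tdo2, Kynu, Acmsd and Slc12a8 lay below the signal filter, and G6pdx, Parp10, Cd38 and Slc25a52 are not analysed here. In CON 8 of the 41 (19.5%) had a rhythm, which lies near the background of 17.1%. Their median size over the 41 was 0.20 against 0.18 over all genes. In MUT 1 of the 41 did, and 1 differed between genotypes, both times Nampt, with median sizes of 0.14 and 0.23 against 0.13 and 0.19 over all genes. At an unadjusted p under 0.05 (limma) the counts were 15, 6 and 10. The share of all genes at that threshold was not counted, so these counts cannot show whether the pathway holds an excess. In CON the p of 0.013 of Sirt1 (limma) already stood at place 3105 of the 15526 tested genes.

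The rhythms in CON lay in several roles besides salvage. Over all tested genes 17.1% were called in CON, and the 19.5% of the 41 pathway genes lies near that share. The counts by role are therefore only a description. Among 6 tested genes of NADP formation and reduction, Pgd, an NADPH-producing enzyme of the pentose phosphate path, swung by 0.83 ± 0.18 (peak CT20.8, adjusted p = 0.00921), and Nadk2, the mitochondrial NAD kinase gene, by 0.46 ± 0.09 (CT3.07, adjusted p = 0.00534, limma). Of 3 genes of nicotinamide clearance, Aox1, an aldehyde oxidase, swung by 0.73 ± 0.17 (CT3.95, adjusted p = 0.0131, limma). Of 7 sirtuin genes 3 passed: Sirt2 (0.29, CT17.5), a cytosolic deacetylase gene, and the mitochondrial sirtuin genes Sirt3 (0.27, CT1.46) and Sirt5 (0.23, CT1.16). Parp9 was the 1 of 6 PARP genes that passed (0.32, CT4.11). The nicotinamide riboside, nicotinic acid, tryptophan, hydrolase and transport roles had no call in CON. Of these genes Nampt and Sirt2 peaked between CT15 and CT18, and Nadk2, Aox1, Sirt3, Sirt5 and Parp9 between CT1 and CT5.

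Fitted MUT sizes of these genes were 0.06 for Pgd, 0.09 for Nadk2, 0.32 for Aox1, 0.08 for Sirt2, 0.17 for Sirt3, 0.07 for Sirt5 and 0.27 for Parp9. None of the 7 passed for its rhythm in MUT or for the difference between genotypes (adjusted p from 0.0731 for Parp9 to 0.773 for Sirt3 for the difference, limma), but 2 differences depended on the setting. That of Pgd passed with array weights (0.84, adjusted p = 0.0456) and with the mesothelium score (0.99, adjusted p = 0.0277), and that of Parp9 likewise (0.49 and 0.56, adjusted p = 0.0322 and 0.0358, limma). Sirt5 lost its CON call in 17 of 24 leave-outs (0.18 to 0.26), and Parp9 in 10 (0.28 to 0.37). Sirt3 lost it without CON CT1 replicate 1 or 2 or CON CT13 replicate 1 or 2 (0.23 to 0.27), and Sirt2 without CON CT7 replicate 3 or CON CT19 replicate 3 (0.26 and 0.23). The differences of Pgd and Aox1 passed without MUT CT13 replicate 2 (0.99 and 0.91, adjusted p = 0.0491 and 0.0175, limma), and that of Parp9 passed without CON CT13 replicate 3 or MUT CT13 replicate 1 (0.55 in each, adjusted p = 0.0497 and 0.0499, limma). Without the 3 arrays of narrow spread only Nadk2 of these 7 kept its CON call. With the mesothelium score as a covariate Aox1 had a CON size of 0.44 (adjusted p = 0.188), Sirt2 of 0.25 (adjusted p = 0.193) and Sirt5 of 0.22 (adjusted p = 0.0816), and none of the 3 passed (limma). With the macrophage score Sirt2 (0.19, adjusted p = 0.318), Sirt3 (0.25, adjusted p = 0.0912), Sirt5 (0.21, adjusted p = 0.101) and Parp9 (0.42, adjusted p = 0.0699) did not pass (limma).

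**Figure D4:**
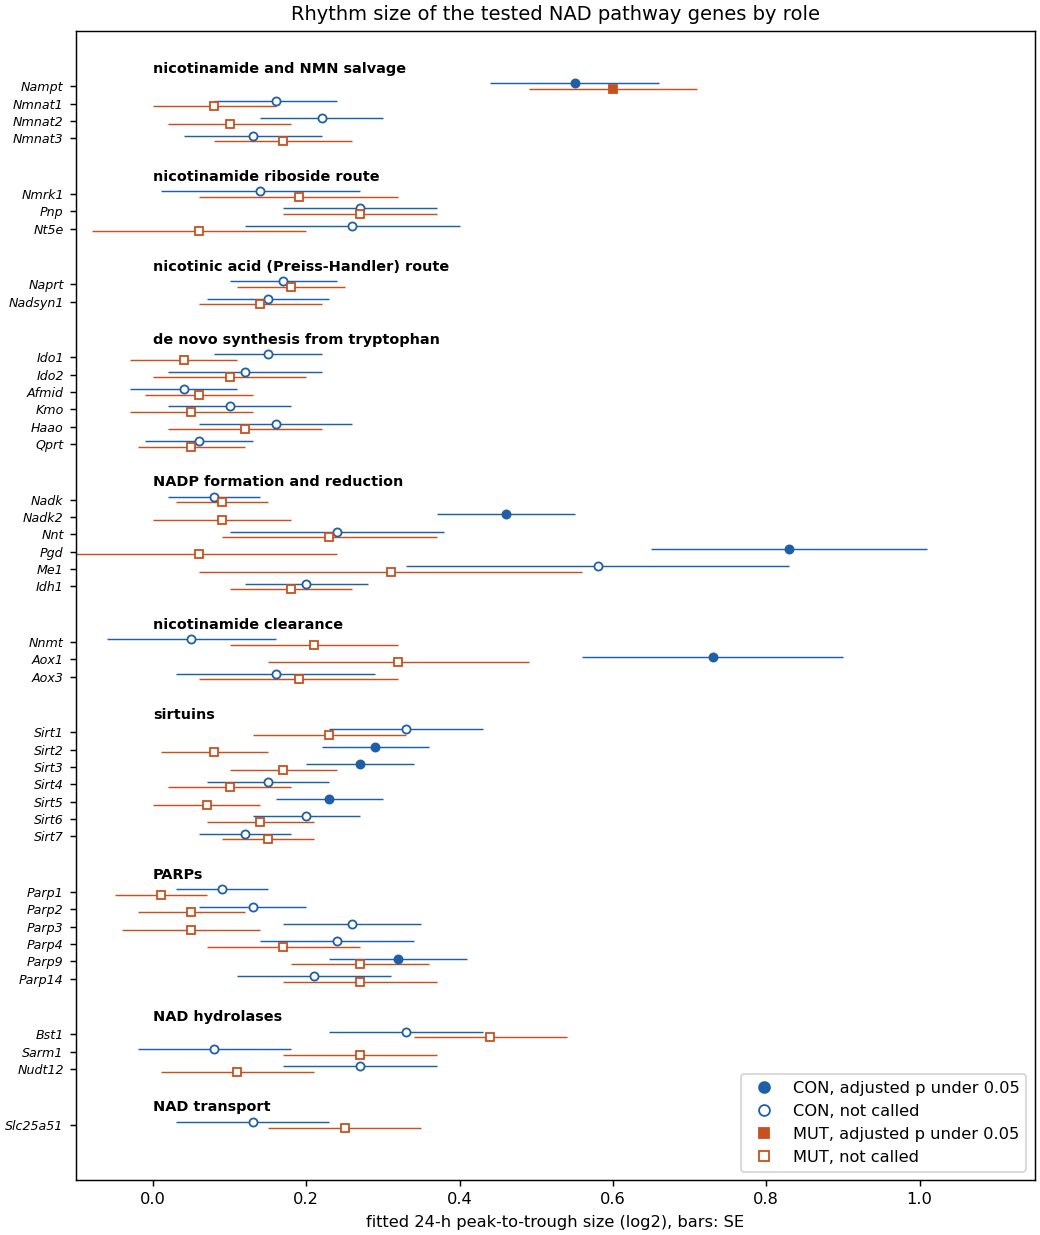
Fitted 24-h peak-to-trough size (log2) with 1 SE for the 41 tested pathway genes by role, in CON (blue circles) and MUT (orange squares); filled symbols passed an adjusted p of 0.05. Filled CON symbols number 8, and the 1 filled MUT symbol is that of Nampt.

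In the daily mean, 6 of the 41 pathway genes differed, 4 higher and 2 lower in MUT, where 21.7% of all genes passed. Nmrk1, which encodes a nicotinamide riboside kinase, was higher by 0.35 ± 0.07 (adjusted p = 0.00329, limma), with a signal close to the filter of 7.416 (7.45 ± 0.05 in CON and 7.81 ± 0.14 in MUT at CT1). Parp1, the main DNA-damage PARP gene, was higher by 0.16 ± 0.03, Parp4 by 0.18 ± 0.05 and Sirt2 by 0.12 ± 0.03. Nmnat1 and Qprt, which encodes the last enzyme of the tryptophan path before the shared steps, were lower (-0.12 and -0.11). The calls of Nmrk1 and Parp1 held in every alternative and leave-out run on them. Without the 3 arrays of narrow spread those of Parp4 (0.11, adjusted p = 0.203), Sirt2 (0.09, adjusted p = 0.176) and Qprt (-0.10, adjusted p = 0.183) ended, as they did with the mesothelium score (0.12, 0.11 and -0.05, adjusted p = 0.191, 0.132 and 0.404, limma). Sirt2 also missed the threshold with quantile normalization (0.07, adjusted p = 0.12), and Qprt with arrays shifted to 1 median (-0.07, adjusted p = 0.137) and with the macrophage score (-0.11, adjusted p = 0.0511, limma). The Qprt call further ended without any 1 of 9 arrays (-0.13 to -0.09 over all leave-outs). At CT7 Sirt2 joined Nampt as higher in MUT (0.27 ± 0.07, adjusted p = 0.0286, limma), and at CT19 Parp4 was higher (0.40 ± 0.10, adjusted p = 0.0339, limma) while Nampt was lower. The Sirt2 call at CT7 ended without CON CT7 replicate 2 or 3 or MUT CT7 replicate 2 or 3 (0.23 to 0.28), and the Parp4 call at CT19 without CON CT19 replicate 1 or 2 or MUT CT19 replicate 1 or 2 (0.31 to 0.39). Both also ended with the arrays of that time fitted alone (adjusted p = 0.0563 and 0.0707) and with the mesothelium score (0.25 and 0.35, adjusted p = 0.108 and 0.0682, limma). Sirt2 at CT7 was 0.20 without the 3 arrays of narrow spread (adjusted p = 0.402, limma).

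Of the 15525 other tested genes, Pnp had the 8 group means most like those of Nampt (r = 0.98). Pnp encodes purine nucleoside phosphorylase, which also splits nicotinamide riboside into nicotinamide, the substrate of NAMPT. In CON it stood at 8.58 ± 0.14, 8.61 ± 0.13, 8.83 ± 0.12 and 8.73 ± 0.09 at CT1, 7, 13 and 19, and in MUT at 8.65 ± 0.06, 8.82 ± 0.13, 8.73 ± 0.15 and 8.57 ± 0.17. The pattern is that of Nampt at smaller size, 0.27 ± 0.10 in each genotype, and the arrays of its groups overlapped widely. Pnp did not pass in CON, in MUT or for the difference (adjusted p = 0.117, 0.309 and 0.236, limma), though with array weights it passed in CON (0.35, adjusted p = 0.0251) and for the difference (0.53, adjusted p = 0.0454, limma). Its fitted peak lay at CT14.7 in CON and CT8.15 in MUT, a shift of -6.56 ± 1.94 h. Pnp2, the neighbouring paralog with a probe set of its own, was dim, below the signal filter, and ran the other way (r = -0.74).

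The next genes in likeness were Dyrk2, a protein kinase gene (0.95), Zhx2, a zinc-finger and homeobox factor gene (0.95), Ccdc9b (0.94), Ptger3, a prostaglandin E2 receptor gene (0.93), and Phlda3, a p53 target (0.92). Phlda3 had the largest swing of the 6, 1.08 in CON (peak CT16.6) and 0.64 in MUT (CT8.8). Ptger3 swung by 0.80 in CON (CT17.2) and 0.55 in MUT (CT7.55), and Ccdc9b by 0.50 (CT15.5) and 0.43 (CT8.3). These 3 were called in CON and for the difference (adjusted p = 8.93e-05 for Phlda3, 0.00364 for Ccdc9b and 0.0101 for Ptger3, limma), and Ccdc9b and Phlda3 also in MUT. Dyrk2 and Zhx2 had fitted sizes of 0.13 to 0.21 and were called in none of the 3. The other members lay far from this group, with r = 0.47 for Nnmt, -0.23 for Nmnat1, -0.26 for Nadk and -0.33 for Naprt.

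**Figure D5:**
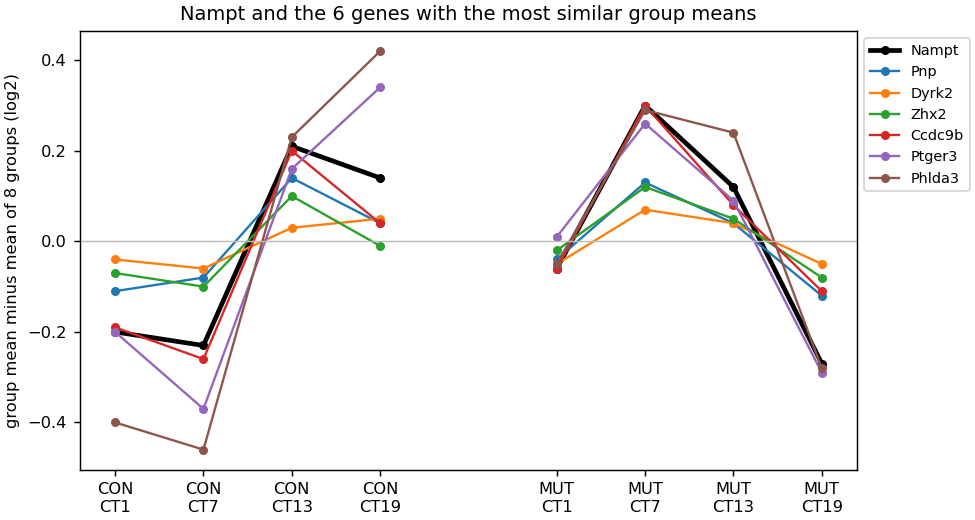
Group means of Nampt (black) and of the 6 genes most like it, each as the log2 distance from its own mean of 8 groups, for CON (left) and MUT (right) at CT1, 7, 13 and 19. The genes were chosen for this likeness: they are high at CON CT13 and MUT CT7 and low at MUT CT19, where Nampt is at -0.27.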

How the data were processed

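An Affymetrix GeneChip array was hybridised for each of 24 mice, with biotin-labelled total RNA from Trizol, per the labels' protocols. The deposited values are log2 signals, made by the authors with RMA in Affymetrix Expression Console, per the submitters' processing notes; tool versions, settings and the genome build were not given in the sources used here.

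In total 34390 probe sets comprise 23521 with a single gene symbol, 1814 with several, which were not used, and 9055 with none. For each gene the brightest probe set was kept, and genes below the 30th percentile of mean signal (log2 7.416) were left out. A cell-means model was fitted with limma 3.58.1 in R 4.3.3 (16 residual df), with contrasts for a cosine and a sine of 24 h (moderated F test, 2 df) and two-sided contrasts of MUT minus CON. Benjamini-Hochberg adjustment ran over 15526 genes, with a threshold of 0.05. The labels give 1 mouse per array, and the number of arrays limits the precision. The model was tested on simulated data.

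The members and lists were chosen with earlier results of these data known. Named are the 7 members, pathway genes past the threshold (at most 4 per role and comparison), the 6 genes most like Nampt by Pearson r over 8 group means, and Arntl, Nr1d1, Dbp, Per1, Per3 and Npas2 for peak times; Pnp2 was added after its values were seen. Alternatives were other scalings, level filters, probe set rules, variance models, array weights, a replicate block, fits of the groups compared alone, a test without a cosine and each array left out. The fits without 3 arrays of narrow spread and with marker scores as covariates were chosen after seeing the data. Markers of fibroblasts, endothelium, T cells and erythrocytes were also looked up: the first 2 lists had median percentiles of 84.5 and 95.3, 2 of 4 T cell markers passed the filter, and erythrocyte markers are not analysed here. Plots used matplotlib 3.10.9 in Python 3.11.15.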

Additional observations from a re-analysis of the deposited data

Results flagged for a closer look

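The 24-h rhythm of Nampt differed between MUT and CON by a test of the difference itself: the vector difference was 0.97 ± 0.15 log2 (adjusted p = 0.00428, limma). The CON wave peaked at CT15.8 and the MUT wave at CT8.12. No other member or pathway gene met this rule.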

How the results depend on the processing

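The Nampt rhythm in CON, its difference between genotypes and its CT7 difference kept their calls in all 24 leave-outs and under every other setting except the removal of 3 arrays. Those of the MUT rhythm and of CT19 did not, and where no value shows a cause, the cause was not tested. The limit is 3 arrays per group at 4 times, so that the size and the phase of a 12-h component cannot be told apart. The signal filter of log2 7.416 is a percentile of mean signal, and no background was measured. How close the dimmest member, Naprt (mean log2 signal 8.02), lay to background is therefore not known.

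Nampt at CT19 missed the threshold with arrays shifted to 1 median (-0.36, adjusted p = 0.0578, limma), with no level filter (-0.41, adjusted p = 0.0573), with the groups compared alone (-0.41, adjusted p = 0.0562), and with the mesothelium score (-0.33, adjusted p = 0.075). With a replicate block it was -0.41 (adjusted p = 0.0593, limma); the letters do not pair the samples, since same-letter arrays had a mean r of -0.01 (-0.43 to 0.34, 17 of 84 pairs over 0.1) and 5 of 24 arrays matched their own letter best. The block ended the calls of Nmnat1 (-0.12, adjusted p = 0.0532), Sirt5 (0.0576) and Parp9 (0.0553, limma) too. The MUT rhythm of Nampt missed it with MUT arrays alone (0.60, adjusted p = 0.106), with the mesothelium score (0.44, adjusted p = 0.216) and with the macrophage score (0.60, adjusted p = 0.0721). Without the 3 arrays of narrow spread Nampt was at 0.52 in CON, 0.60 in MUT, 0.94 for the difference, 0.51 at CT7 and -0.41 at CT19, none of them called. The Nampt daily mean turned to -0.01 with quantile normalization.

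The number of members called went to 2 for the CON rhythm, with Sirt1 added, with quantile normalization (Sirt1 adjusted p = 0.0472), a filter at the 60th percentile (0.0493) and the mesothelium score (0.0492), and to 0 without the 3 arrays. It went to 0 for the MUT rhythm with the 3 settings above and without the 3 arrays, for the difference and CT7 without the 3 arrays, for CT19 with its 5 settings above and without the 3 arrays, and for the daily mean with quantile normalization, the shift, the replicate block, either score and without the 3 arrays. In the leave-outs it was 1 to 2 for the CON rhythm, 0 to 1 for the MUT rhythm, the daily mean and CT19, and 1 for the difference and CT7. There Nampt ranged from 0.54 to 0.68 for the MUT rhythm, -0.50 to -0.34 at CT19 and -0.19 to 0.09 at CT13.

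Small uncalled differences changed sign. With quantile normalization these were the daily means of Nmnat3 (0.03), Nnmt (-0.02) and Naprt (0.02), Nadk at CT1 (-0.03), and Nnmt (-0.01) and Naprt (0.03) at CT7. With arrays shifted they were the daily means of Nmnat3 (0.04), Nadk (0.01), Sirt1 (0.01) and Naprt (0.02), Naprt at CT7 (0.03), and Nmnat1 (0.03), Nadk (0.02) and Sirt1 (0.04) at CT13. Nmnat3 in the daily mean and Nnmt at CT7 were at 0.00 with array weights. With the mesothelium score the Nmnat3 daily mean was 0.02, that of Nadk 0.00 and Naprt at CT7 0.02; with the macrophage score the Nmnat3 daily mean was 0.00 and Naprt at CT7 0.01. Leave-outs gave daily means of -0.02 to 0.02 for Nmnat3 and -0.01 to 0.06 for Nnmt. At CT1 they gave -0.01 to 0.09 for Nmnat3, -0.02 to 0.05 for Nadk, -0.12 to 0.03 for Sirt1 and -0.11 to 0.01 for Naprt. At CT7 they gave -0.05 to 0.08 for Nnmt and -0.05 to 0.01 for Naprt. At CT13 they gave -0.07 to 0.01 for Nmnat1, -0.03 to 0.07 for Nmnat3, -0.07 to 0.01 for Nadk, -0.04 to 0.15 for Nnmt and -0.09 to 0.04 for Sirt1, and at CT19 -0.01 to 0.13 for Sirt1.

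With every array kept or the 3 narrow ones removed, the number of genes called ran from 1011 to 4194 for the CON rhythm (2650 as reported), 17 to 555 in MUT (54), 161 to 737 for the difference (223), 255 to 4778 for the daily mean (3365), 3 to 58 at CT1 (7), 49 to 2727 at CT7 (629), 0 to 236 at CT13 (50) and 187 to 1642 at CT19 (425). Leaving out 1 array gave 1843 to 2892, 26 to 141, 119 to 371, 2146 to 4131, 0 to 18, 191 to 732, 4 to 196 and 36 to 623 in the same order. The lowest counts came without MUT CT7 replicate 1 for the MUT rhythm, MUT CT19 replicate 1 for the difference, CON CT13 replicate 1 for the daily mean and CT13, CON CT7 replicate 3 for CT7 and CON CT19 replicate 2 for CT19, and at CT1 without CON CT1 replicate 1 or MUT CT1 replicate 1 or 3. The CON rhythm of Sirt5 also lost its call with quantile normalization (adjusted p = 0.0503), no filter (0.059), CON arrays alone (0.0618) and no cosine (0.0714); that of Parp9 did with no filter (0.0557) and no cosine (0.0714), and that of Sirt3 with no cosine (0.0678, limma).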
